A study of Mus musculus with 6 samples.

Results

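The kinesin motor genes were followed in human kidney-derived cells before and after induction of the splicing regulator Rbfox1. Members were all genes named KIF, KIFC or KLC followed by a family number, with an expected count of at least 60 summed over the 6 samples. The name pattern took 46 genes and the count minimum left 43 of them, out of 58870 genes in the files. KIF2B with a summed expected count of 0, KIF19 with 10.0 and KIF4B with 29.2 were below the minimum, whereas KIF12 with 165 and KIF25 with 209 were the lowest members above it. KIF4B is a retrocopy nearly identical to KIF4A, so reads of this pair may have been shared between them by the counting software.

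The cells were 77-5, a single clone of T-REx-293, a HEK293 derivative that makes the tetracycline repressor. They carried a minigene of mouse Ntrk2 built from a bacterial artificial chromosome, together with a doxycycline-inducible Rbfox1. The Dox group (n = 3) had received doxycycline at 0.5 mg/ml for 48 h by the labels, and the No Dox group (n = 3) was the same clone left untreated. Figure legends of the study give the dose in micrograms per ml instead, and the concentration used is therefore uncertain. Poly(A)-selected stranded RNA-seq was made from each sample, and the labels list mouse as organism although the transcripts in the tables are human. No group received doxycycline without Rbfox1, so an effect of the drug and an effect of Rbfox1 cannot be told apart. The sources do not say that the replicates were separate cultures, and p-values therefore measure the spread between these samples, which may be technical.

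Kinesins are motor proteins that walk along microtubules using ATP. Kinesin-1, a pair of heavy chains with a pair of light chains, and kinesin-3 carry vesicles and organelles outward from the cell centre, and kinesin-2 also drives transport inside cilia. Other families build and position the mitotic spindle, gather chromosomes or complete cell division, and the kinesin-13 family removes tubulin from microtubule ends instead of walking. Rbfox proteins bind RNA and regulate the inclusion of alternative exons, and several neuronal transport motors are known to be made in more than 1 splice form. No human sequences or coordinates were used here, so isoforms are given by their names and lengths in the files.

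Total expected counts lay between 59822964 and 65774104 in Dox samples and between 62344973 and 65758236 in No Dox samples. RBFOX1 averaged 188 ± 1.8 TPM (an abundance scaled for transcript length and library total) in Dox and 7.53 ± 0.79 TPM in No Dox (SD, n = 3 each), and RBFOX2, its paralog, averaged 17.0 ± 0.88 TPM in Dox and 48.3 ± 1.6 TPM in No Dox. Dox and No Dox samples lay apart on the first principal component, which took 57.7% of the variance. The share of counts from mitochondrial genes was 3.62% to 3.71% in Dox and 3.25% to 3.34% in No Dox, and the part of this difference in the results was not tested. Of 6 listed markers of HEK293-derived cells, KRT8, KRT18, VIM and NEFL were abundant and called lower, with KRT8 at 188 TPM in Dox and 227 TPM in No Dox. NEFM was low and called higher, at 1.15 TPM in Dox and 0.55 TPM in No Dox, and PAX2 did not pass, at 2.07 TPM in Dox and 2.43 TPM in No Dox. Markers of blood, liver, endothelium, muscle and fibroblasts together reached 4.9 to 5.3 TPM in Dox and 4.2 to 5.5 TPM in No Dox, nearly all of it COL1A1, at 4.60 TPM in Dox and 4.55 TPM in No Dox.

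Kinesin messages as a whole kept a similar weight in both groups. They took 0.315%, 0.310% and 0.309% of all expected counts in the Dox samples and 0.308%, 0.314% and 0.314% in the No Dox samples, so the groups overlapped. Of the 43 genes, 41 had a mean of at least 1 TPM in both groups and 25 had at least 10 TPM in both. The most abundant were KIF22, KIF5B, KIF23, KLC1 and KIF20A, each above 70 TPM in both groups. Within this similar total, 27 genes differed between Dox and No Dox (edgeR quasi-likelihood test, Benjamini-Hochberg adjusted p under 0.05), and 8 rose and 19 fell. Among all 18264 genes tested the same rule called 51.4%, with 24.9% higher and 26.5% lower in Dox. The kinesin shares were 62.8% called, 18.6% higher and 44.2% lower, and the median log2 fold change was -0.06 for kinesins and 0.01 for all genes tested. The difference in shares was not tested, and the other genes were not matched to kinesins for expression level. With library size alone instead of TMM normalization, 12 kinesins were called higher and 13 lower, and among all genes 5682 were higher and 3753 lower. Under that scaling the median over all genes was 0.05 (log2), and none of the called kinesins changed sign. On log2(TPM + 1), limma called 16 of the 43 kinesins, against 38.2% of all genes tested.

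Most of these changes were small. The median absolute log2 fold change was 0.14 in kinesins and 0.18 in all genes, 15 of the 27 called genes had an absolute value under 0.2, and 0 members reached a 2-fold change. An absolute log2 fold change of at least 0.4 with a mean of at least 1 TPM in a group was met by 5 members or 11.6%, close to the 11.1% of all genes tested. The 5 were KIF5C, KIF15, KIF17, KIF13B and KIF25. The TPM ranges of the groups did not overlap in 20 members or 46.5%, against 50.3% of all genes tested. The other 16 members did not pass the test, and their log2 fold changes ran from -0.13 to 0.10.

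**Figure D1:**
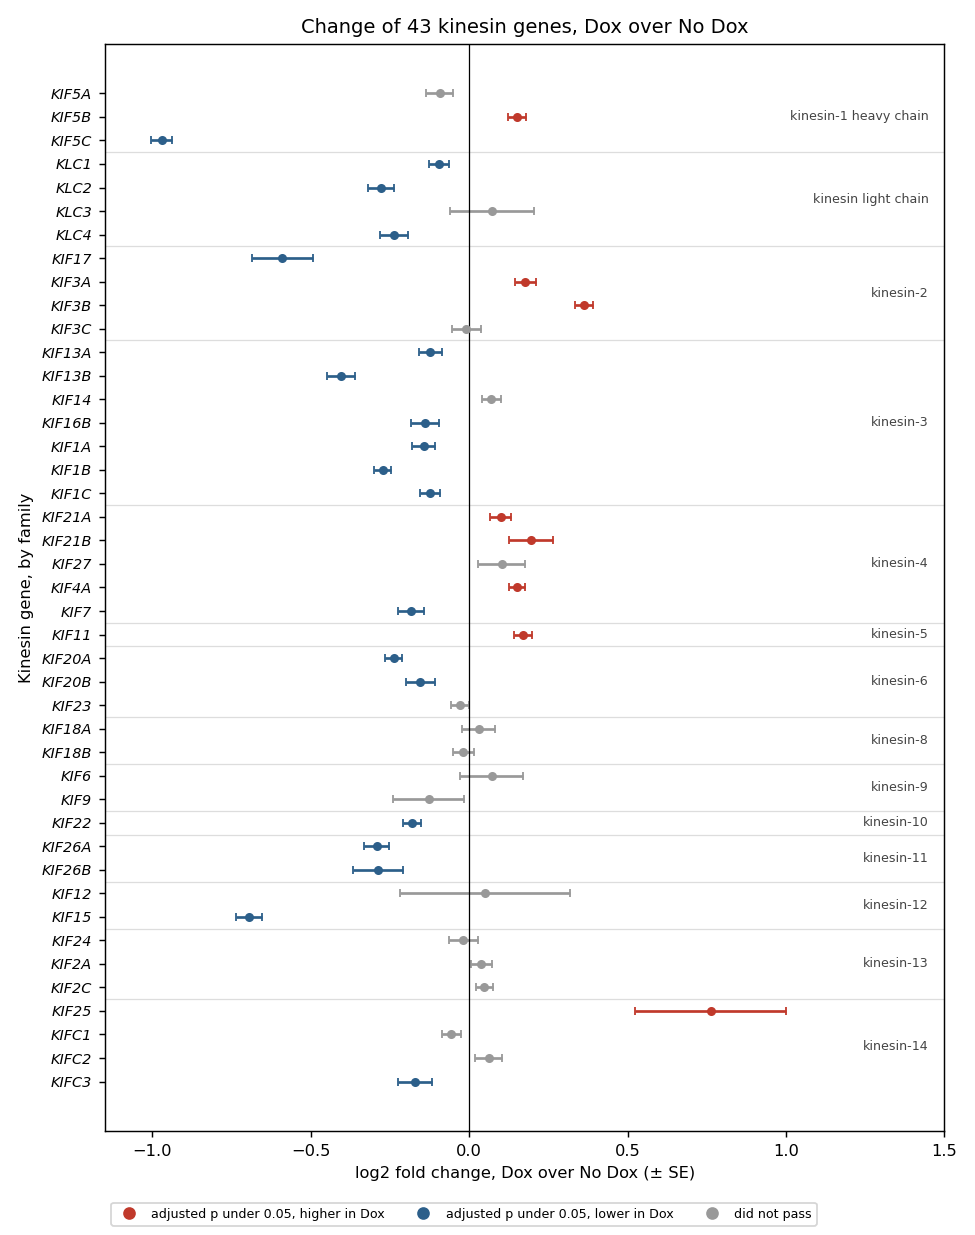
log2 fold change of counts, Dox over No Dox, for the 43 kinesin genes by family, with bars of 1 SE (edgeR, n = 3 each). Red points were higher in Dox, blue points were lower in Dox and grey points did not pass. KIF5C at -0.97, KIF15 at -0.69 and KIF25 at 0.76 lie farthest from 0.

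Heavy chains of kinesin-1 moved in opposite directions. KIF5C, a heavy chain known mainly from neurons, had 7.21, 6.86 and 7.41 TPM in Dox samples and 13.94, 14.08 and 14.16 TPM in No Dox samples. All Dox samples were near 7 TPM and all No Dox samples near 14 TPM, with no overlap. The log2 fold change was -0.97 ± 0.03 (SE, adjusted p = 1.5e-12), the largest absolute change among kinesins. KIF5B, the ubiquitous heavy chain, rose by a small amount, with 100.4, 98.1 and 103.4 TPM in Dox and 84.4, 88.8 and 91.0 TPM in No Dox (log2 fold change 0.15 ± 0.03, adjusted p = 0.00021). KIF5A, the other neuronal heavy chain, had 5.62 ± 0.21 TPM in Dox and 5.74 ± 0.39 TPM in No Dox and did not pass. KIF5B made up most of the family, and the summed heavy chain level was 111 to 117 TPM in Dox and 104 to 111 TPM in No Dox, with overlap.

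The kinesin light chains, which link the heavy chains to cargo, fell in 3 of 4 cases. Of all genes tested, 26.5% fell, and the difference was not tested. KLC2 had 41.8, 41.7 and 39.1 TPM in Dox against 50.0, 49.7 and 48.7 TPM in No Dox (log2 fold change -0.28 ± 0.04, adjusted p = 2.9e-05). KLC4 had a log2 fold change of -0.24 ± 0.04 and KLC1, the most abundant light chain, of -0.10 ± 0.03. On log2 TPM the call of KLC4 was lost (adjusted p = 0.107 with limma and a pseudocount of 0.1). The call of KLC1 was lost without Dox replicate 2 (adjusted p = 0.0556) and without No Dox replicate 1 (adjusted p = 0.078). KLC3, with 1.94 ± 0.23 TPM in Dox and 1.80 ± 0.21 TPM in No Dox, did not pass. Summed over the family, light chains reached 128 to 141 TPM in Dox and 152 to 157 TPM in No Dox, without overlap. Part of this gap came from KLC1, whose log2 ratio of mean TPM was -0.18, against -0.10 in counts. The abundance-weighted transcript length of KLC1 was 1855 ± 48 bases in Dox and 1721 ± 14 bases in No Dox (SD, n = 3 each). The part of this length in the sum was not tested.

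KIF3A, KIF3B and KIFAP3 form heterotrimeric kinesin-2, the motor of anterograde transport in cilia. Each was called higher, as were 24.9% of all genes tested. KIF3B had 25.1, 24.5 and 24.6 TPM in Dox and 18.2, 19.2 and 18.9 TPM in No Dox, a log2 fold change of 0.36 ± 0.03 (adjusted p = 2.9e-08). Its motor partner KIF3A had 22.1 ± 1.2 TPM in Dox and 19.6 ± 1.2 TPM in No Dox, a log2 fold change of 0.18 ± 0.03 (adjusted p = 0.00036), although on log2(TPM + 1) limma gave an adjusted p of 0.0516. The TPM of KIF3A overlapped between groups, at 20.75 to 23.18 in Dox and 18.84 to 20.96 in No Dox. The associated subunit KIFAP3, which carries no motor and was listed among the adaptors, had 24.2 ± 0.61 TPM in Dox and 21.1 ± 0.25 TPM in No Dox (log2 fold change 0.14, adjusted p = 0.0014). KIF3C, an alternative partner of KIF3A, had 6.43 ± 0.90 TPM in Dox and 6.45 ± 0.32 TPM in No Dox and did not pass. KIF17, the homodimeric kinesin-2 known for dendritic and ciliary transport, went the other way, with 1.15, 1.43 and 1.33 TPM in Dox and 1.75, 1.69 and 2.07 TPM in No Dox. Its log2 fold change was -0.59 ± 0.10 (adjusted p = 8.9e-05), and the groups did not overlap although the level was low.

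**Figure D2:**
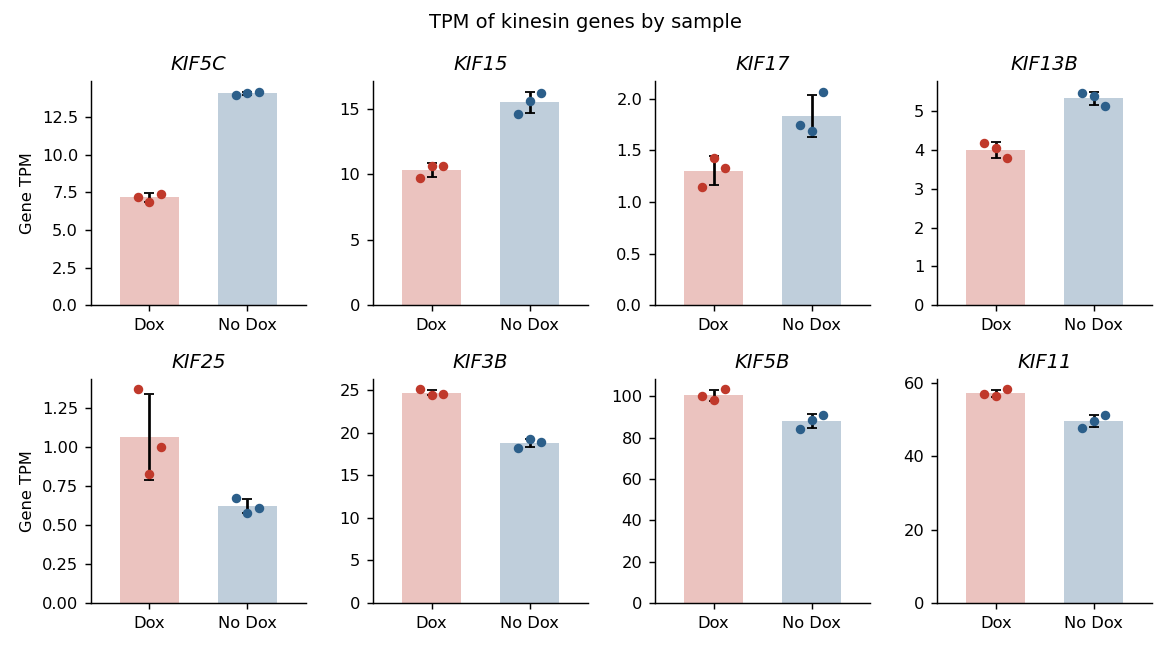
Gene TPM of 8 kinesins in each sample (points), with the mean (bar) and SD (n = 3 each), Dox left of No Dox. KIF5C sits at 6.86 to 7.41 TPM in Dox and 13.94 to 14.16 TPM in No Dox, whereas KIF25 spreads from 0.83 to 1.37 TPM in Dox.

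Kinesin-3 motors, which move synaptic vesicle precursors, endosomes and other organelles, were called lower in 6 of 7 cases by counts. Of all genes tested, 26.5% were called lower, and the difference was not tested. KIF13B had 4.19, 4.04 and 3.78 TPM in Dox and 5.47, 5.38 and 5.14 TPM in No Dox, a log2 fold change of -0.40 ± 0.04 (adjusted p = 1.4e-06). KIF1B, a carrier of mitochondria and synaptic vesicle precursors, fell by 0.27 on the log2 scale of counts (SE 0.03, adjusted p = 4.9e-07). KIF1A, KIF1C, KIF13A and KIF16B had log2 fold changes from -0.14 to -0.12, and without Dox replicate 3 that of KIF1A was -0.09. KIF14, a mitotic member of the family that acts in cytokinesis, had 17.5 ± 0.12 TPM in Dox and 16.2 ± 0.67 TPM in No Dox and did not pass (adjusted p = 0.065). KIF16B lost its call without Dox replicate 2 (adjusted p = 0.0893) and without No Dox replicate 3 (adjusted p = 0.0582), and KIF13A without No Dox replicate 3 (adjusted p = 0.0575). On log2(TPM + 1) and log2(TPM + 0.1), where limma tests length-scaled values, KIF13B was the only kinesin-3 that kept its call.

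For KIF1B, KIF1C and KIFC3, a minus-end-directed kinesin-14, counts and length-scaled TPM gave different pictures. KIF1B had 25.0, 24.1 and 25.2 TPM in Dox and 25.8, 26.2 and 26.8 TPM in No Dox, a log2 ratio of means of -0.09 against -0.27 in counts, and it did not pass on log2(TPM + 1) (limma, adjusted p = 0.101). The abundance-weighted transcript length of KIF1B was 7729 ± 74 bases in Dox and 8574 ± 63 bases in No Dox (SD, n = 3 each). KIF1C had a log2 fold change of -0.12 in counts but a log2 ratio of mean TPM of 0.01, with weighted lengths of 4072 ± 259 bases in Dox and 4329 ± 193 bases in No Dox, a difference within the spread of the samples. KIFC3 had -0.17 in counts and 0.02 in TPM, with 2184 ± 86 bases in Dox and 2406 ± 141 bases in No Dox. On the TPM scale KIF1C and KIFC3 lost their calls and changed sign. Log2 counts minus log2 TPM was -0.036 in KIF3B and -0.035 in KIF11, whose weighted length did not change. Signs as near 0 as these therefore carry little weight. The same gap was 0.204 in KIF6 and -0.17 in KIF27, which did not pass by counts. KIFC3 also lost its call without No Dox replicate 1 (adjusted p = 0.0877).

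**Figure D3:**
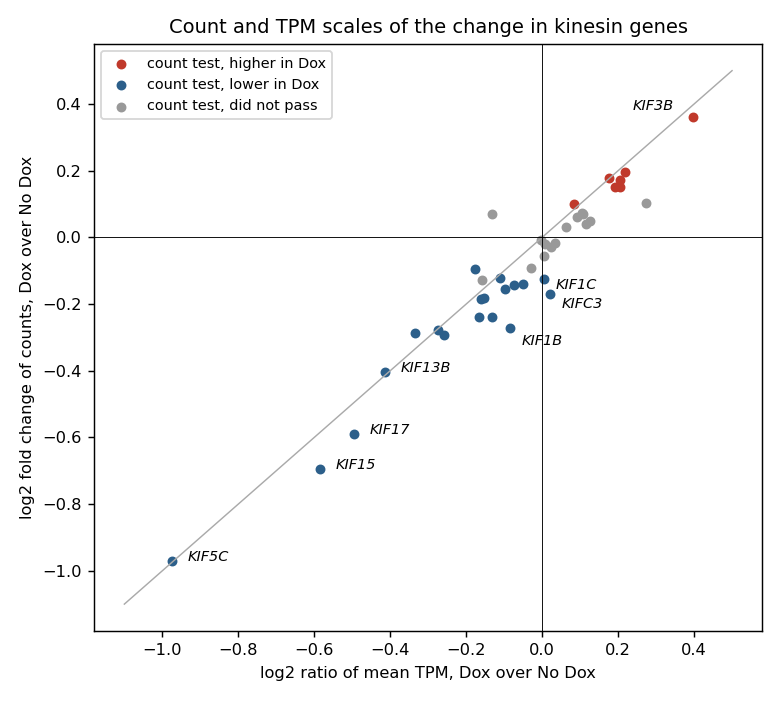
log2 fold change of counts (vertical) against the log2 ratio of mean TPM (horizontal), Dox over No Dox, for the 41 kinesins with a mean of at least 1 TPM in both groups. The grey line marks equality, and KIF1B at -0.27 in counts and -0.09 in TPM lies below it with KIF1C and KIFC3. Most of the other genes also lie below it. In KIF3B and KIF11, whose weighted length did not change, log2 counts minus log2 TPM was -0.036 and -0.035.

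In the kinesin-4 family, which includes chromosome-bound and microtubule-growth-limiting motors, 3 of the 5 tested genes rose and 1 fell. Among all genes tested, 24.9% rose and 26.5% fell. KIF4A, a chromokinesin of the spindle midzone, had 50.5, 50.5 and 52.8 TPM in Dox and 44.3, 43.9 and 45.3 TPM in No Dox (log2 fold change 0.15 ± 0.03, adjusted p = 0.00016). KIF21A and KIF21B, which restrain microtubule growth, had log2 fold changes of 0.10 and 0.20. KIF21A lost its call without Dox replicate 2 (adjusted p = 0.0877) and without No Dox replicate 1 (adjusted p = 0.142). The call of KIF21B was lost on leaving out Dox replicate 1, Dox replicate 2, No Dox replicate 1 or No Dox replicate 3 (adjusted p from 0.0651 to 0.111). KIF7, a ciliary regulator of Hedgehog signalling, had 14.8 ± 1.1 TPM in Dox and 16.6 ± 0.23 TPM in No Dox (log2 fold change -0.18 ± 0.04, adjusted p = 0.0013). KIF27, its paralog, had 2.45 ± 0.43 TPM in Dox and 2.03 ± 0.15 TPM in No Dox and did not pass. On log2 TPM only KIF4A of this family kept its call.

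The 12 kinesins listed for their work in mitosis did not move as a block. Of these, 2 rose, 4 fell and 6 did not pass, with a median log2 fold change of -0.02, and their summed level was 617 to 631 TPM in Dox and 622 to 640 TPM in No Dox. Their called share of 50% was near the 51.4% of all genes tested. KIF15, a plus-end motor that helps to keep the spindle bipolar, had 9.69, 10.63 and 10.61 TPM in Dox and 14.61, 15.58 and 16.22 TPM in No Dox. The highest Dox sample was well below the lowest No Dox sample, and the log2 fold change was -0.69 ± 0.04 (adjusted p = 1.1e-09). KIF11 (Eg5), the main motor that separates spindle poles and whose work KIF15 can partly take over, changed in the opposite direction, with 57.0, 56.5 and 58.3 TPM in Dox and 47.9, 49.7 and 51.3 TPM in No Dox. Its log2 fold change was 0.17 ± 0.03 (adjusted p = 7.6e-05).

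Among the kinesin-6 motors of the central spindle, KIF20A, which brings the chromosomal passenger complex to the midzone, had 70.5, 69.1 and 72.6 TPM in Dox and 80.4, 77.4 and 80.4 TPM in No Dox. The log2 fold change was -0.24 ± 0.03 (adjusted p = 2.4e-06). KIF20B had -0.15 ± 0.05 and lost its call without No Dox replicate 2 (adjusted p = 0.0557) or No Dox replicate 3 (adjusted p = 0.0533). KIF23, the motor of the centralspindlin complex, had 87.6 ± 3.9 TPM in Dox and 86.2 ± 1.6 TPM in No Dox at the gene level and did not pass. KIF22, a chromokinesin that pushes chromosome arms outward, had 123, 123 and 116 TPM in Dox and 135, 132 and 134 TPM in No Dox (log2 fold change -0.18 ± 0.03, adjusted p = 7.1e-05). The 2 kinesin-8 motors KIF18A and KIF18B, the 3 tested kinesin-13 genes KIF2A, KIF2C and KIF24, and KIFC1, a spindle-focusing kinesin-14, did not pass. On log2(TPM + 1), however, limma called KIF2A higher by 0.11 (adjusted p = 0.0343) and KIF2C by 0.13 (adjusted p = 0.0068), both were also called with library size alone, and the TPM of neither overlapped between groups.

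Levels of the proliferation marker MKI67 were 93.3 ± 2.1 TPM in Dox and 95.0 ± 3.4 TPM in No Dox, and of TOP2A 208 ± 7.8 TPM in Dox and 204 ± 4.8 TPM in No Dox, both without a call. Of the 24 listed mitotic partners and G2/M markers, 8 rose, 5 fell and 11 did not pass, with a median log2 fold change of -0.02 and a summed level of 2902 to 2960 TPM in Dox and 2917 to 2989 TPM in No Dox. The called share of these genes, 54.2%, was also near the 51.4% of all genes. BUB1, a kinase of the spindle checkpoint, stood apart with 19.1, 20.4 and 21.6 TPM in Dox and 51.4, 52.5 and 51.6 TPM in No Dox (log2 fold change -1.53 ± 0.04, adjusted p = 1.4e-13). The part of cell cycle stage in the kinesin values was not tested beyond these levels.

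The remaining families held few expressed members. Both kinesin-11 genes, which encode atypical kinesins with little motor activity, fell, as did 26.5% of all genes tested. KIF26A had 8.12 ± 0.36 TPM in Dox and 9.72 ± 0.32 TPM in No Dox (log2 fold change -0.29 ± 0.04, adjusted p = 1.4e-05), and KIF26B, at 1.19 ± 0.06 TPM in Dox and 1.5 ± 0.14 TPM in No Dox, also had -0.29 but did not pass on log2(TPM + 1) (adjusted p = 0.0586). KIF25, a kinesin-14, had expected counts of 57, 35 and 41 in Dox and 26, 23 and 27 in No Dox, or 1.37, 0.83 and 1.00 TPM in Dox and 0.67, 0.58 and 0.61 TPM in No Dox. The log2 fold change was 0.76 ± 0.24 (adjusted p = 0.013), but it rested on Dox replicate 1, without which it was 0.56 with an adjusted p of 0.0935. KIF6, KIF9, KIF12 and KIFC2 did not pass.

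Isoforms gave changes that gene totals did not show. The files held 372 isoforms of the 43 genes, 195 had enough counts to be tested and 37 differed (limma-voom, adjusted p under 0.05), 18 higher and 19 lower. That was 19.0% of the tested kinesin isoforms, 9.23% higher and 9.74% lower, against 12.6% of all 72438 tested isoforms, 6.19% higher and 6.44% lower. Isoform usage, the change of an isoform relative to the rest of its gene, differed in 13 of 37 kinesin genes with at least 2 tested isoforms (limma diffSplice, 35.1%), against 27.5% of all 12328 such genes. Another test, edgeR diffSpliceDGE, called 6 of the 13 (KIF1B, KIF21A, KIF23, KIF26A, KIF2A and KLC1), or 16.2% of the 37, against 9.91% of all genes. Both usage tests made many false calls on simulated counts, so a usage call is not taken to hold the nominal error rate. Of the 13 genes, 7 had no call at the gene level, and of all 18264 genes tested 8880 had none. Stricter criteria asked for a usage call, a gene mean of at least 1 TPM in both groups and a tested isoform that shifted at least 10 percentage points without overlap. These criteria were met together by 6 kinesin genes (16.2%, against 9.17% of all genes): KIF1B, KIF21A, KIF23, KIF9, KIF24 and KIF6. In all of these but KIF24 an isoform with such a shift also passed its own usage test, which left 5 genes or 13.5%, against 9.3% of all genes.

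Dox samples held less of a long KIF1B message and more of a shorter one. The 10669-base isoform KIF1B-204 made up 7.34%, 7.19% and 7.18% of the gene in Dox samples and 31.8%, 30.6% and 28.4% in No Dox samples. The 7565-base isoform KIF1B-205 made up 84.7%, 83.9% and 86.1% in Dox samples and 56.0%, 57.2% and 56.4% in No Dox samples. The replicates differed by at most a few points and the groups were far apart. In abundance, KIF1B-204 had 1.79 ± 0.05 TPM in Dox and 7.94 ± 0.30 TPM in No Dox (log2 fold change -2.16, adjusted p = 2.6e-05), and KIF1B-205 had 21.0 ± 0.73 TPM in Dox and 14.8 ± 0.32 TPM in No Dox (0.49, adjusted p = 0.00037). KIF1B-211, another isoform, of 8624 bases, fell to 3.37 ± 0.63% in Dox, against 9.15 ± 1.1% in No Dox. The adjusted p of usage for KIF1B was 7.8e-10.

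KIF21A exchanged its main isoforms while its gene level rose by only 0.10 on the log2 scale. KIF21A-204, of 5040 bases, made up 5.53%, 6.0% and 1.56% in Dox and 34.8%, 34.4% and 29.8% in No Dox. KIF21A-210, of 3161 bases, made up 14.5%, 9.63% and 9.11% in Dox and 38.5%, 34.1% and 39.8% in No Dox. These were the leading isoforms in No Dox, and both made up less in Dox. By contrast, KIF21A-214 of 6157 bases made up 23.7%, 30.1% and 25.6% in Dox and 8.04%, 10.4% and 12.8% in No Dox. KIF21A-206 of 3005 bases made up 20.4%, 20.2% and 19.6% in Dox and 1.58%, 2.46% and 1.92% in No Dox. KIF21A-213 of 4120 bases made up 12.9%, 13.9% and 14.6% in Dox and 1.69%, 3.31% and 0.60% in No Dox. Of the 10 tested isoforms, 4 rose and 2 fell, against 6.19% higher and 6.44% lower of all tested isoforms. Their log2 fold changes ran from -3.08 for KIF21A-204 to 3.43 for KIF21A-206, and the adjusted p of usage for KIF21A was 1.5e-11.

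KIF23, known to be made as a shorter and a longer splice form, changed its isoform percentages although its gene level did not pass. KIF23-202, of 3351 bases, made up 19.9%, 21.4% and 19.1% in Dox and 34.3%, 32.5% and 33.3% in No Dox. KIF23-207, of 3129 bases, made up 19.2%, 19.7% and 21.3% in Dox and 8.21%, 9.38% and 10.1% in No Dox. KIF23-206, of 2296 bases, made up 9.40%, 9.58% and 8.06% in Dox and 0.46%, 0.71% and 0.00% in No Dox. The first fell and the others rose, without overlap between groups. KIF23-202 had 17.6 ± 0.31 TPM in Dox and 28.8 ± 0.34 TPM in No Dox (log2 fold change -0.72, adjusted p = 0.0001), and KIF23-207 had 17.6 ± 1.7 TPM in Dox and 7.96 ± 0.95 TPM in No Dox (1.14, adjusted p = 0.0014). The adjusted p of usage was 3.5e-07. Which of these messages encodes which protein form was not assigned.

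**Figure D4:**
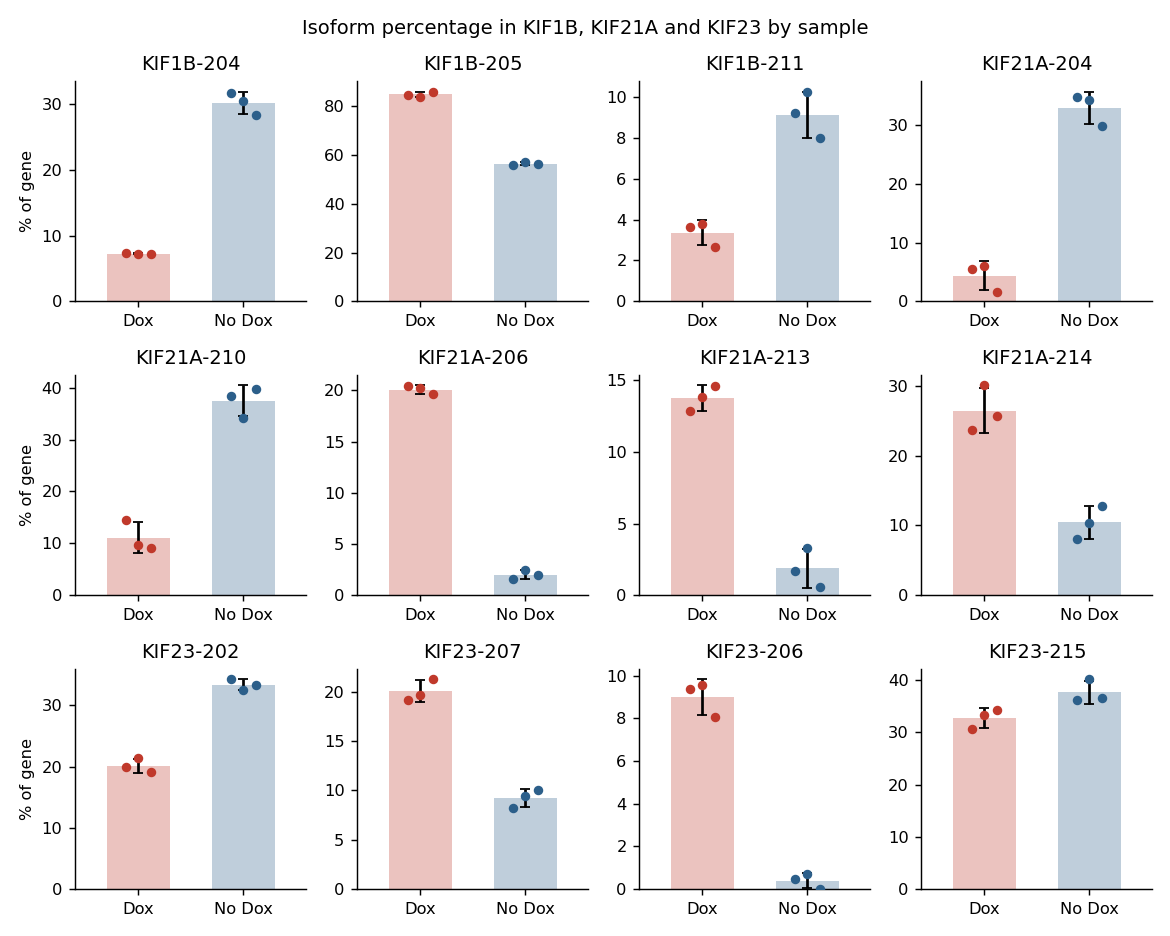
Percentage of each gene's abundance assigned to 12 isoforms of KIF1B, KIF21A and KIF23, in each sample (points) with the mean (bar) and SD (n = 3 each), Dox left of No Dox. Each panel has its own vertical scale, starting at 0, and KIF1B-204 averages 7.24% in Dox and 30.3% in No Dox.

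The other usage changes were smaller or rested on low levels. In KIF9, a kinesin of motile cilia, the 640-base isoform KIF9-203 made up 62.9%, 54.7% and 55.6% in Dox and 22.0%, 13.3% and 16.3% in No Dox. The 633-base isoform KIF9-205 made up 20.5%, 31.5% and 23.7% in Dox and 54.5%, 57.9% and 64.3% in No Dox. Both are short compared with a full motor message, and the change of KIF9-203 lost its call without No Dox replicate 2 (adjusted p = 0.0562) and without No Dox replicate 3 (adjusted p = 0.0581). KIF6-206 made up 26.8%, 29.7% and 33.8% in Dox and 34.85%, 42.95% and 48.13% in No Dox, at a gene level near 3 TPM, and its own log2 fold change did not pass (adjusted p = 0.0729). The second usage test, diffSpliceDGE, called neither KIF9 (adjusted p = 0.132) nor KIF6.

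KIF24, a centriolar kinesin-13 that removes tubulin and limits cilium formation, had only 2 tested isoforms at 4 TPM. KIF24-201 made up 41.6%, 59.0% and 36.1% in Dox and 34.7%, 32.4% and 23.8% in No Dox, and KIF24-202 the remainder. The lowest Dox sample lay just above the highest No Dox sample. The usage call (adjusted p = 0.043) was lost in 5 of the 6 fits that left out a sample, with an adjusted p from 0.0625 to 0.174, and neither isoform passed its own test.

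In KLC1, a light chain known for many splice forms of its C terminus, 6 of 23 tested isoforms were called, 3 higher and 3 lower. Of all tested isoforms, 12.6% were called, 6.19% higher and 6.44% lower. The adjusted p of usage for KLC1 was 0.0018. KLC1-210 made up 3.87 ± 0.56% in Dox and 10.9 ± 1.5% in No Dox, and KLC1-217 made up 6.54 ± 0.85% in Dox and 1.61 ± 0.90% in No Dox. In KIF2A, a microtubule-depolymerizing kinesin-13, KIF2A-203 made up 6.75 ± 0.56% in Dox and 1.83 ± 1.2% in No Dox. KIF5C, in contrast, fell in both of its called isoforms: KIF5C-201 had 6.04 TPM in Dox and 11.02 TPM in No Dox, and KIF5C-205 had 0.94 TPM in Dox and 2.43 TPM in No Dox. KIF11-201 and KIF3B-201 were listed at 100% of their genes in both groups.

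Partners of the motors were listed for comparison. Of 21 tested kinesin adaptors and regulators, 9 rose, 6 fell and 6 did not pass, with a median log2 fold change of 0.03. The called share was 71.4%, 42.9% higher and 28.6% lower, against 51.4% of all genes, 24.9% higher and 26.5% lower, and this difference was not tested. MAPK8IP2, a scaffold that binds kinesin light chains, had 14.4, 14.8 and 13.7 TPM in Dox and 20.6, 21.3 and 20.9 TPM in No Dox (log2 fold change -0.58 ± 0.03, adjusted p = 6.9e-10). TRAK2, which joins kinesin-1 to mitochondria, had 11.1 ± 0.33 TPM in Dox and 8.71 ± 0.24 TPM in No Dox (0.31, adjusted p = 1.8e-06). MAP7, a microtubule protein that recruits kinesin-1, had 16.7 ± 0.43 TPM in Dox and 20.4 ± 0.84 TPM in No Dox (-0.29, adjusted p = 1.8e-06). TRAK2 and MAP7 were picked from the list although below an absolute log2 fold change of 0.4. Listed relatives of these genes did not follow them. MAP7D1 rose (0.18, adjusted p = 0.00035), MAPK8IP3 rose (0.18, adjusted p = 0.0037), and TRAK1 (-0.05) and MAPK8IP1 (0.11) did not pass.

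The opposite motor, dynein with its cofactor dynactin, was measured for comparison. Of 26 listed genes, 7 rose, 7 fell and 12 did not pass, with a median log2 fold change of -0.02. The called share of 53.8% was near the 51.4% of all genes. DYNC1I1, an intermediate chain known mainly from neurons, had 3.98, 4.27 and 3.78 TPM in Dox and 2.76, 2.75 and 2.53 TPM in No Dox (0.70 ± 0.08, adjusted p = 1.2e-06). HOOK3, an adaptor that activates dynein, had 7.23, 9.65 and 8.64 TPM in Dox and 11.1, 11.6 and 14.6 TPM in No Dox (-0.62 ± 0.03, adjusted p = 1.9e-10). In both genes the groups did not overlap.

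The called kinesin genes were not equally robust. Of the 27, 12 kept their call in every alternative that was run apart from a minimum fold change of 1.2, 4 that rose (KIF3B, KIF4A, KIF5B and KIF11) and 8 that fell (KIF5C, KIF13B, KIF15, KIF17, KIF20A, KIF22, KIF26A and KLC2). Of the others, 8 genes lost the call when 1 sample was left out, and 13 lost it on a log2 TPM scale with limma. With library size alone 6 lost it, KIF13A, KIF16B, KIF1C, KIF20B, KIFC3 and KLC1, and KIF14, KIF2A, KIF2C and KIFC2, which had not passed, did so.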

How the data were processed

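RNA-seq of 3 Dox and 3 No Dox samples was analysed, grouped by the labels. Per the labels and the study's methods, the authors used cutadapt for trimming, STAR for alignment to GRCh38 and RSEM for quantification of isoforms, in versions that the sources read here do not state. The deposited expected counts are RSEM estimates of fragments, not normalized. The deposited TPM is scaled for isoform length and library. Isoform percentages, also deposited, express an isoform's TPM as a percent of its gene's. RSEM divides shared reads by a model, so similar isoforms and paralogs can exchange reads.

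Expected counts were summed per gene, rounded and tested over all genes with edgeR 4.0.16 (TMM, filterByExpr, quasi-likelihood F). Isoforms were tested with limma-voom and usage with diffSplice (limma 3.58.1, R 4.3.3), with Benjamini-Hochberg adjustment over all features and a threshold of 0.05. All tests were two-sided. The biological coefficient of variation was 2.87%. With 3 against 3 samples an exact permutation test cannot go below p = 0.1, so single values were tested only in these fits. The SE of a gene's log2 fold change was its absolute value divided by the square root of F.

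Members and lists were chosen with earlier results of these data known. Values per sample were given for genes past the test with an absolute log2 fold change of at least 0.4 and 1 TPM in a group. They were also given for isoforms of genes with changed usage that moved at least 10 points without overlap, in genes that reached 1 TPM on average in Dox and in No Dox. Other members given with values per sample were chosen after their values were seen. All 43 members passed the filter on low counts. Alternatives were DESeq2 1.42.0, other scalings and filters, limma on log2 TPM with pseudocounts of 1 and 0.1, a minimum fold change of 1.2, other isoform tests, a replicate block and leaving out each sample. Scripts were tested on simulated data.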

Additional observations from a re-analysis of the deposited data

How the results depend on the processing

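The count of 27 called kinesin genes (8 higher, 19 lower in Dox) was 26 with DESeq2, where KIF21B was lost, 27 with RLE scaling or no filter, and 25 with library size alone, where 6 calls were lost and 4 gained. Of all genes, the main fit called 51.4%, DESeq2 45.5%, RLE scaling 51.4% and library size alone 51.7%. Without a filter it was 30.8% of 31338 genes. On log2(TPM + 1) limma called 16, 9 of them lower, and on log2(TPM + 0.1) 17, 9 of them lower, while 38.2% and 38.3% of all genes were called. KIF1C then changed sign to 0.005 at both pseudocounts, and KIFC3 to 0.019 with a pseudocount of 1 and 0.021 with 0.1. Tested against a minimum fold change of 1.2, 5 genes were called, 1 higher and 4 lower, or 11.6% against 13.3% of all genes (1333 higher, 1097 lower). Called isoforms numbered 37, and 56 with DESeq2, which also called more of all isoforms (21.5% against 12.6%). Genes with changed usage numbered 13, 6 with diffSpliceDGE and 5 where an isoform had to pass its own test and move 10 points. The cause of these differences was not tested. Leaving out each sample gave 23 to 28 called genes, 6 to 8 higher and 16 to 20 lower, 29 to 32 isoforms and 9 to 12 genes with changed usage. Over all features these fits called 44.7% to 50% of genes, 7.21% to 8.43% of isoforms and 22% to 23.6% of genes for usage.

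Samples with the same replicate number correlated weakly in their deviations from the group means (r = 0.03 to 0.06), so the numbers were not taken as pairs, although each sample correlated best with its own number. With replicate number as a block, 28 kinesin genes (9 higher, 19 lower), 36 isoforms and 13 genes with changed usage were called. Over all features the block fits called 53.7% of genes, 10% of isoforms and 28% of genes for usage. KIF25 and KIF12 had the fewest reads of the members, with summed expected counts of 209 and 165.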
